A study of Mus musculus with 6 samples.

Results

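The mRNAs of cytoplasmic dynein and dynactin were followed from total RNA into RNA co-precipitated with Staufen2 in a podocyte line. The genes taken were the dynein heavy chain Dync1h1, the intermediate chain Dync1i2, the light intermediate chains Dync1li1 and Dync1li2, the light chains Dynll1, Dynll2 and Dynlrb1, and the dynactin subunits Dctn1, Dctn2 and Dctn3. They were named by function, each through its brightest probe set with 1 gene symbol, and all 10 were measured, among 19938 genes in all. Podocytes form the outer epithelium of the glomerular filter, and the cells were an immortalized murine line that had been differentiated by a shift of temperature and withdrawal of gamma-interferon. The study compared 3 arrays of input RNA, labelled as total RNA, with 3 arrays of RNA recovered from cytoplasmic lysate by an antibody to Staufen2, a double-stranded RNA-binding protein, and every array was labelled from 100 ng of RNA. Both groups came from the same untreated line, with no other genotype or agent, so they differ by the pulldown and by whatever separates total RNA from the cytoplasmic lysate. With equal RNA on each array, the values describe proportions among RNAs. A pulldown with a control antibody was not analysed here, so a higher value is recovery relative to the input and not binding as such.

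Cytoplasmic dynein 1 is the motor that carries cargo towards the minus ends of microtubules. Its heavy chain holds the ATPase and microtubule-binding domains, the intermediate and light intermediate chains join the heavy chain to partners and cargo, and small light chains of the LC8, roadblock and Tctex families bind the intermediate chain. Dynactin, built on a short filament of the actin-related protein Arp1 with a projecting shoulder, makes dynein processive, and coiled-coil adaptors bring motor, dynactin and cargo together. In neurons Staufen-containing RNA granules are known to travel along microtubules.

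The arrays had near-identical medians (6.53 to 6.54 on the log2 scale), and the lowest correlation over all probe sets was 0.998 within a group and 0.982 between groups. Of 8 podocyte markers measured, 4 (Wt1, Synpo, Cd2ap and Kirrel1) lay above the median of all values (6.54) in the input, while Nphs1 at 6.30, Podxl at 6.04, Ptpro at 6.10 and Tcf21 at 5.91 lay below it. Nphs1 encodes nephrin, a defining podocyte protein. Of 16 markers of other kidney and blood cells, 5 lay above that median, among them Pdgfrb at 11.45 and Lrp2 at 9.36. In the pulldown 4 of the 16 were higher and 3 lower, beside 31.3% and 17.3% of all genes. Among the 8 podocyte markers 4 were higher (Wt1, Podxl, Synpo and Cd2ap) and none was lower. Levels of the 16 spanned 5.15 to 11.45 in the input and 5.18 to 11.77 in the pulldown. The part of these other cell markers in the results was not tested. Nothing in the labels ties the 3 arrays of a group to different cultures, and the spread behind every p-value may be technical. Bulk RNA cannot tell fewer cells with a transcript from less transcript per cell.

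Within the motor and its cofactor the mRNAs went in opposite directions. Of the 10 genes, 5 were higher in the pulldown (Dync1h1, Dync1li2, Dctn1, Dync1li1 and Dync1i2) and 3 lower (Dynlrb1, Dctn3 and Dynll2), at an adjusted p under 0.05 from limma with Benjamini-Hochberg adjustment over all genes. Dynll1 and Dctn2 did not pass. In the same test 31.3% of all genes were higher and 17.3% lower. All 10 genes are bright, however, and among the 5036 genes at least as bright as the dimmest of them (a mean of 9.85 over 6 arrays) 53.8% were higher and 29.7% lower. Their counts by direction were therefore close to those of other bright genes, and their median log2 difference of 0.15 equalled the median of 0.15 among those genes. The differences spanned -1.21 to 0.84, and the bright genes had quartiles of -0.19 and 0.48. Pulldown and input values did not overlap for any of the 10 genes, against 55.9% of all genes without overlap. That share was not computed for genes as bright as these 10.

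The heavy chain, Dync1h1 (probe set 10398483), which carries the motor domain, read 11.65, 11.61 and 11.62 on the 3 input arrays and 12.51, 12.42 and 12.48 on the 3 pulldown arrays (log2 values). All 3 pulldown arrays stood well above all input arrays. The group means were 11.63 ± 0.020 and 12.47 ± 0.046 (SD, n = 3), a log2 difference of 0.84 ± 0.033 (SE) or 1.79-fold, with a limma adjusted p of 7.5e-07. It was the largest positive difference of the 10 genes and exceeded that of 96.7% of all genes measured.

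The light intermediate chains, which link the heavy chain to cargo adaptors, both rose but not equally. Dync1li2 (probe set 10581073) went from 11.41, 11.38 and 11.34 in the input to 12.09, 12.07 and 12.07 in the pulldown. Its log2 difference was 0.70 ± 0.029 (SE), or 1.63-fold (adjusted p = 9.3e-07). Dync1li1 (probe set 10589913) went from 11.63, 11.57 and 11.60 to 11.91, 11.88 and 11.93, a smaller difference of 0.31 ± 0.029 or 1.24-fold (adjusted p = 6.7e-05). Within each array the value of Dync1li1 minus that of Dync1li2 moved from 0.22, 0.19 and 0.26 in the input to -0.18, -0.19 and -0.15 in the pulldown. That shift of -0.40 ± 0.026 (SE) separated the groups completely, with an exact 2-sided permutation p of 0.10, the smallest that 3 against 3 arrays can give. As array signal, the shift between these related chains was 1.32-fold.

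The intermediate chain Dync1i2 (probe set 10472764), the platform for the light chains and for dynactin, read 11.60, 11.58 and 11.56 in the input and 11.86, 11.91 and 11.78 in the pulldown. It rose by 0.27 ± 0.037 (SE) on the log2 scale (adjusted p = 0.00058), with the pulldown arrays more spread than the input arrays and still above all of them. A test against a 1.2-fold change no longer called Dync1i2 (adjusted p = 1) or Dync1li1 (adjusted p = 0.34), whereas Dync1h1 and Dync1li2 passed it.

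The light chains did not follow the heavy chain. Dynlrb1 (probe set 10477630), a roadblock light chain, fell from 12.37, 12.41 and 12.40 in the input to 11.21, 11.15 and 11.20 in the pulldown. The replicates of each group lay close together (SD 0.017 and 0.030), and the groups were over 1 log2 unit apart. Its difference of -1.21 ± 0.029 (SE), or 2.31-fold lower (adjusted p = 2.2e-07), was the largest negative one of the 10 genes, and 1.21% of all genes ranked at or below it.

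The LC8 light chains Dynll1 and Dynll2, dimeric hub proteins that also bind many partners outside dynein, changed little. Dynll1 (probe set 10532984) read 12.06, 12.05 and 12.04 in the input and 12.08, 12.11 and 12.09 in the pulldown. Although its groups did not overlap, the difference of 0.04 ± 0.026 (SE) did not pass (adjusted p = 0.21), with a 95% interval from -0.02 to 0.11. Dynll2 (probe set 10389674) read 11.27, 11.25 and 11.21 in the input and 11.04, 11.05 and 11.18 in the pulldown, where the third array lay close to the input. It was lower by a log2 difference of -0.16 ± 0.045 (adjusted p = 0.021). That call ended without pulldown array 1 (adjusted p = 0.079), pulldown array 2 (0.075), input array 1 (0.076) or input array 2 (0.065). The value of Dynll2 minus that of Dynll1 went from -0.79, -0.80 and -0.83 to -1.04, -1.06 and -0.91, a shift of -0.20 ± 0.049 (SE) and 1.15-fold. Its exact 2-sided permutation p was 0.10, and over both planned paralog pairs the adjusted value is 0.10 as well, the smallest that the design allows.

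Among the dynactin subunits the same divergence was seen. Dctn1 (probe set 10539364), the p150Glued subunit that binds microtubules and the dynein intermediate chain, read 10.03, 10.00 and 9.97 in the input and 10.77, 10.61 and 10.68 in the pulldown. It rose by 0.68 ± 0.043 (SE), or 1.61-fold (adjusted p = 6.6e-06). Dctn3 (probe set 10512291), the small p24 subunit of the shoulder, fell from 10.42, 10.39 and 10.33 to 9.39, 9.19 and 9.36. Its difference was -1.07 ± 0.058 (SE), 2.09-fold lower (adjusted p = 3.2e-06). It had the widest pulldown spread of the 10 genes (SD 0.11), with array 2 the lowest, yet the groups lay far apart. Dctn2 (probe set 10366866), dynamitin, whose excess is known to take dynactin apart, read 11.18, 11.17 and 11.18 in the input and 11.15, 11.04 and 11.12 in the pulldown. The difference of -0.07 ± 0.035 did not pass (adjusted p = 0.16; 95% interval -0.15 to 0.02).

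**Figure D1:**
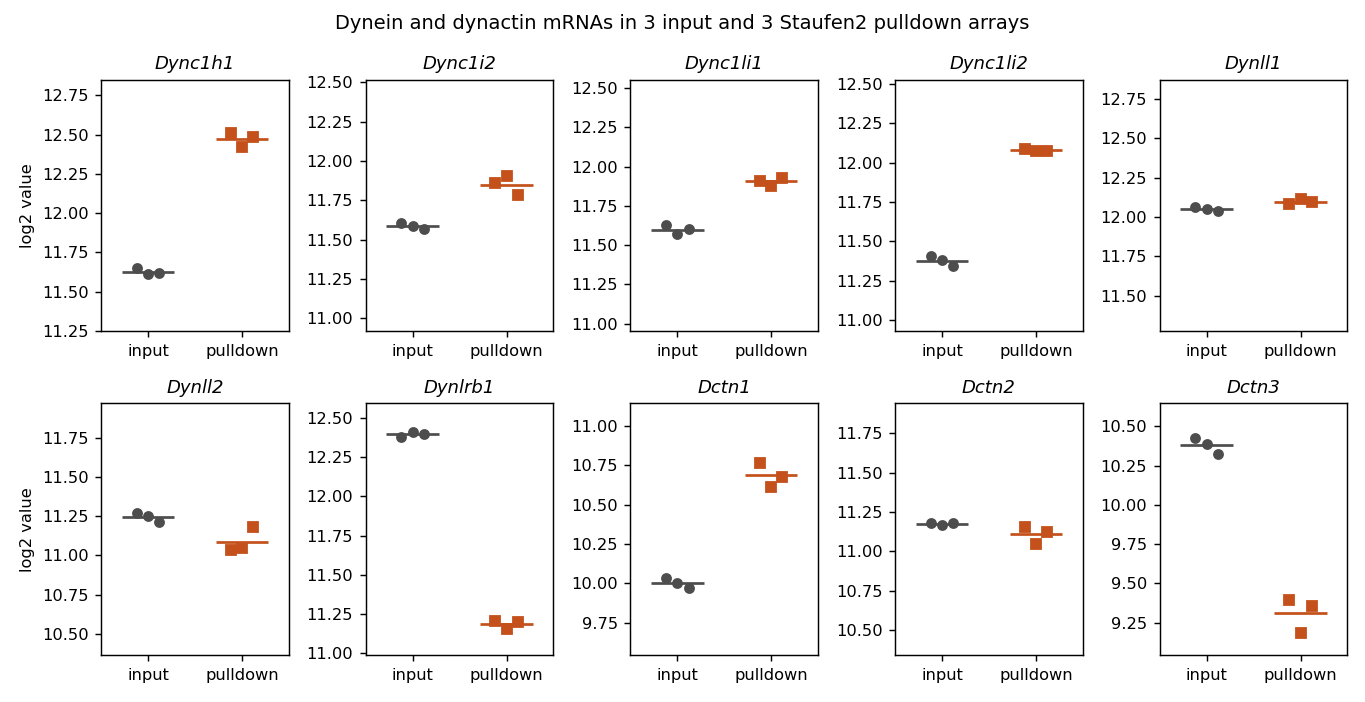
Log2 values of the 10 dynein and dynactin mRNAs, 1 panel per gene, on 3 input arrays (circles) and 3 Staufen2 pulldown arrays (squares), with horizontal lines at the group means; every panel spans the same height in log2 units. Dync1h1, Dync1li2 and Dctn1 stand higher in the pulldown by 0.68 to 0.84, and Dynlrb1 and Dctn3 lower by over 1 log2 unit.

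The distance between the most enriched and the most depleted subunit of each complex was read within each array. These pairs were chosen after their values were seen and are given without a test. The value of Dync1h1 minus that of Dynlrb1 lay between -0.80 and -0.73 on the input arrays and between 1.27 and 1.30 on the pulldown arrays, a shift of 2.05 ± 0.023 (SE) or 4.14-fold. For Dctn1 minus Dctn3 the input arrays lay between -0.39 and -0.35 and the pulldown arrays between 1.32 and 1.43, a shift of 1.75 ± 0.034 or 3.36-fold. The levels of different probe sets are not comparable with each other, so only these shifts between groups carry meaning. Pulldown array 2 gave the lowest pulldown value for 6 of the 10 genes and pulldown array 1 the highest for 6, and these offsets were small beside the shifts.

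The other subunits of both complexes with a probe set of their own differed by -0.31 to 0.15. The probe sets shared by the 4 Dynlt1 copies, not assignable to 1 gene, had log2 differences of -0.86 and -0.89. Of 7 further dynein 1 genes listed, 3 were measured by a probe set of their own and none passed limma's test (none of the 3 at an unadjusted p under 0.05 either). Dync1i1, an intermediate chain best known from neurons, read 5.18 in the input and 5.23 in the pulldown, and the roadblock paralog Dynlrb2 read 5.17 and 5.22, all below the median of all values (6.54). Of the roadblock pair, Dynlrb1 was therefore the member read above that median. Dynlt3, a Tctex light chain, stood at 10.76 ± 0.033 and 10.77 ± 0.084 (SD, n = 3), with a 95% interval of the difference from -0.10 to 0.12.

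Of 9 further dynactin genes listed, 7 were measured. Of these, 1 gene rose, 3 fell and 3 did not pass, with a median of -0.07 and a range of -0.31 to 0.15. All 7 were brighter than the dimmest of the 10 genes. Among the 5036 genes at least that bright 53.8% were higher and 29.7% lower, with a median of 0.15. Whether the 7 differ from those genes was not tested. Dctn4 (p62), Dctn5 (p25) and Dctn6 (p27) belong to the pointed end of the filament, where dynactin meets some of its cargo. Dctn4 was higher by 0.15 ± 0.032 (SE) (adjusted p = 0.0052), a call that ended after cyclic loess scaling (0.06, adjusted p = 0.20). Dctn5 was lower, at -0.31 ± 0.061 (adjusted p = 0.0033). Dctn6 was lower at -0.10 ± 0.030 (adjusted p = 0.029), which no longer passed without input array 1 (adjusted p = 0.054), input array 2 (0.078) or pulldown array 3 (0.089). Actr1a, the Arp1 of the filament itself, had a difference of -0.07 and did not pass (adjusted p = 0.25). The capping protein subunits of the barbed end, which also cap ordinary actin filaments, gave -0.18 ± 0.030 for Capzb (adjusted p = 0.0016), -0.01 for Capza1 and -0.03 for Capza2, and among these 3 only Capzb passed. After cyclic loess Actr1a (-0.17, adjusted p = 0.012) and Capza2 (-0.12, adjusted p = 0.021) were also lower.

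Of 4 genes of the LIS1 and NudE group, which load dynein and help it form active complexes, 2 were higher and none lower, with a median of 0.08. That share lies near the 53.8% of equally bright genes, whose median was 0.15. Pafah1b1, which encodes LIS1, was higher by 0.18 ± 0.033 (SE) (adjusted p = 0.0029), and by 0.07 without passing after cyclic loess (adjusted p = 0.10). Nde1 was higher by 0.31 ± 0.035 (adjusted p = 0.00016). Its paralog Ndel1 (-0.02) and Nudc (-0.04) did not pass, although both were lower after cyclic loess, at -0.12 (adjusted p = 0.015) and -0.15 (adjusted p = 0.0022).

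Of 17 cargo adaptors measured out of 18 listed, 13 were higher, 4 did not pass and none was lower, with a median of 0.74. By unadjusted p under 0.05, Rilp alone was lower, at -0.20 (adjusted p = 0.076), and it passed after cyclic loess (adjusted p = 0.035). The adaptors were dimmer on the whole than the 10 genes, with input means from 5.47 to 11.02. Of the 14 above the median of all values in the input, 12 were higher and none lower, beside 45.5% higher and 27.3% lower among the 11909 genes above it, whose median difference was 0.08. That comparison did not match genes by genomic span, introns included. The adaptors ran from 3.08 kb (Rilp) to 177 kb (Trak1), with Bicd2 at 45.5, Ninl at 74.9, Rab11fip3 at 81.0 and Nin at 102 kb. Coding genes above the median level had a median difference of 0.27 at 30 to 100 kb (quartiles 0.03 and 0.55). Over 100 kb their median was 0.42 (quartiles 0.12 and 0.72). Whether the adaptors differ from genes of like level or span was not tested. Bicd2, which links dynein to Golgi vesicles and nuclear pores and whose fly homolog works in mRNA transport, read 10.40, 10.35 and 10.35 in the input and 11.48, 11.47 and 11.45 in the pulldown. It was higher by 1.10 ± 0.029 (SE), 2.14-fold (adjusted p = 2.5e-07). The centrosomal adaptors Nin and Ninl were higher by 1.08 ± 0.038 and 0.83 ± 0.059, and Rab11fip3, which acts on recycling endosomes, by 0.99 ± 0.063. For these 3 the adjusted p lay between 4.9e-07 and 1.2e-05, and no replicate of either group overlapped the other group. These 4 adaptors had the largest differences of their list. The call of Bicdl1 (0.20, adjusted p = 0.020) ended without input array 1 (0.081), 2 (0.057) or 3 (0.053), and after cyclic loess (0.058).

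Dynein 2, the motor that carries intraflagellar transport trains back from the tip of the cilium, was read through 5 subunits listed apart from dynein 1. Light chains listed with dynein 1 were not counted again here. Each of the 5 passed the test, 2 higher and 3 lower, and all 5 lay above the median of all values in the input. Among the 11909 genes above that median 45.5% were higher and 27.3% lower. The dynein 2 heavy chain Dync2h1 read 7.23, 7.29 and 7.34 in the input and 8.42, 8.30 and 8.43 in the pulldown. It was higher by 1.10 ± 0.046 (SE) or 2.14-fold (adjusted p = 9.8e-07). The intermediate chain Dync2i1 (annotated as Wdr60) was higher by 0.68 ± 0.041. The other intermediate chain, Dync2i2 (annotated as Wdr34), was lower, at -0.52 ± 0.067, as were the light intermediate chain Dync2li1 at -0.61 ± 0.038 and the Tctex-type light chain Dynlt2b (annotated as Tctex1d2) at -0.95 ± 0.052. A second, dimmer probe set of Dynlt2b stood at -0.59. Both heavy chains were thus higher, while the light intermediate chains were higher in dynein 1 and lower in dynein 2. The light chains Dynlrb1 and Dynlt2b were lower, but they were set side by side after their values were seen. Among the other light chains listed with dynein 1 and measured by their own probe set, Dynll1, Dynlrb2 and Dynlt3 did not pass. Dynll2 was lower, at -0.16. Whether the motors differ was not tested, since no pair of their subunits was set in advance.

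The axonemal dynein heavy chains, which beat motile cilia, were read mostly at low levels. Of 14 measured, 13 lay below the median of all values in the input (group means from 4.54 to 6.79). In the pulldown 2 were higher (Dnah3 and Dnah7b, named after their values were seen) and none was lower, also by unadjusted p under 0.05. Among all genes 31.3% were higher and 17.3% lower. Dnah3, the 1 above that median, had 33 probe sets with 1 gene symbol, and its value is from the brightest of them. Dnah7b has a near-identical copy, Dnah7a, that was not called, so its own value is uncertain. The median difference of the 14 was 0.03, and at levels this low the arrays may not show a change.

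**Figure D2:**
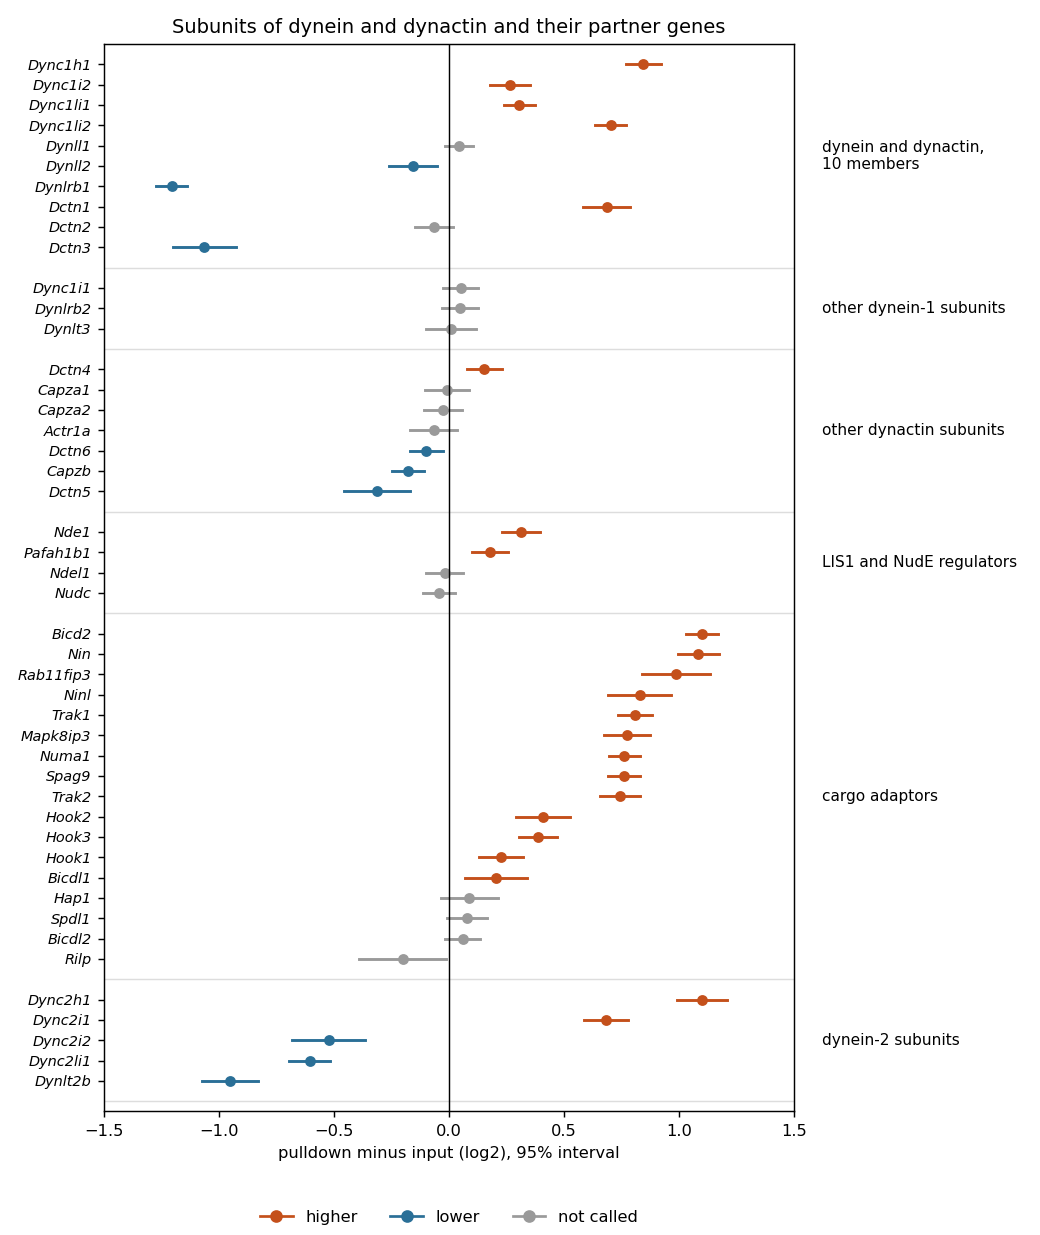
Log2 difference, pulldown minus input, with 95% intervals from limma's moderated test, for the 10 dynein and dynactin genes, the rest of both complexes, the LIS1 and NudE group, 17 cargo adaptors and 5 dynein 2 subunits. Colours give the call at an adjusted p under 0.05; the adaptors lie mostly to the right of 0, while the genes of both motors spread from -1.21 to 1.10.

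The 10 differences were then set beside the size of the genes. The genomic span, introns included, ran from 3.88 kb for Dynll1 to 65.6 kb for Dync1h1, and is only a coarse measure of the RNA. Spearman's rank correlation of span with the difference was 0.73 over the 10 genes and 0.48 over 11637 coding genes above the median level. These are descriptions across genes that share the same 6 arrays, and genes are not independent replicates. In the band of 30 to 100 kb, the 3342 coding genes had a median of 0.27 with quartiles of 0.03 and 0.55. Dync1i2 (51.6 kb) and Dync1li1 (35.0 kb) lay near that median, and Dync1h1 (0.84) and Dctn1 (0.68, 34.2 kb) above the upper quartile. Between 10 and 30 kb the 3861 genes had a median of 0.05 and quartiles of -0.20 and 0.28. Dctn2 and Dynll2 lay within those quartiles, while Dync1li2 (25.4 kb) at 0.70 lay above them and Dynlrb1 (13.7 kb) at -1.21 below. Between 3 and 10 kb the median of 2223 genes was -0.09 with quartiles of -0.47 and 0.09. Dynll1 lay inside and Dctn3 (8.37 kb) at -1.07 below. Of the 10 genes 5 lay within the quartiles of their band, which is the share that quartiles hold by construction.

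**Figure D3:**
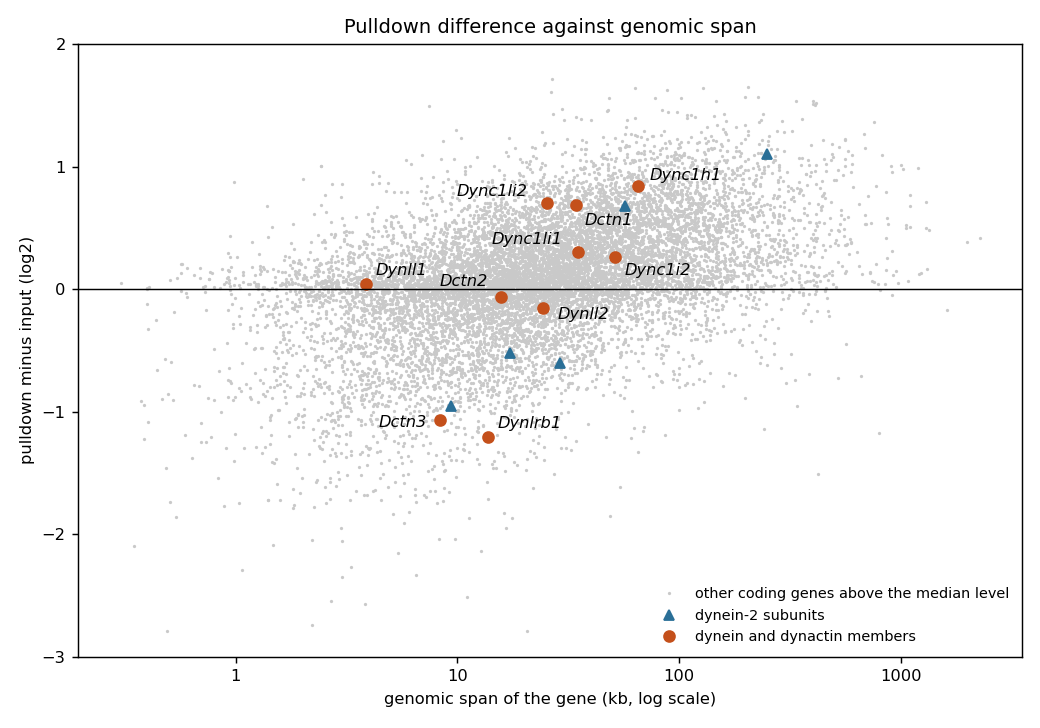
Log2 difference, pulldown minus input, against genomic span (kb, log scale) for coding genes above the median level (grey), the 10 dynein and dynactin genes (circles, named) and the dynein 2 subunits (triangles). The 10 genes tend upwards with span (Spearman 0.73, n = 10), within a wide cloud of other genes (0.48). Dynll1, the shortest, lies at 0.04, above the longer Dctn3 and Dynlrb1.

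The place of zero depends on how the arrays are scaled. The deposited values gave 64.4% of all called genes as higher, against 52.9% after cyclic loess, and the median of genes as bright as these 10 moved from 0.15 to 0.05. All 10 dynein and dynactin differences moved down by about that amount. Dync1h1 then stood at 0.75, Dync1li2 at 0.60, Dctn1 at 0.57, Dync1li1 at 0.21 and Dync1i2 at 0.17, all still called higher. Dynlrb1 stood at -1.30, Dctn3 at -1.18 and Dynll2 at -0.26, all still lower. Dctn2 passed as lower under that scaling (-0.17, adjusted p = 0.0035), and Dynll1 turned from 0.04 to -0.05 without passing (adjusted p = 0.17). The shifts between paralogs were nearly the same, at -0.40 for the light intermediate chains and -0.21 for the LC8 chains.

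**Figure D4:**
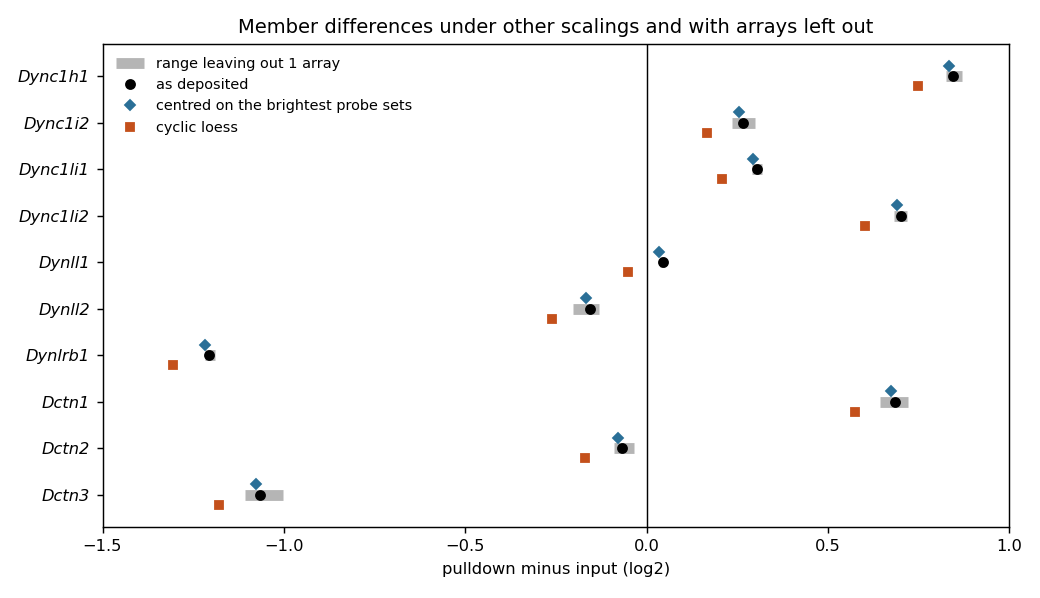
Log2 difference, pulldown minus input, of the 10 genes with the values as deposited (circles), centred on the brightest probe sets (diamonds) and after cyclic loess (squares); grey bars span the values with 1 array left out. Of the 10 genes, Dynll1 alone changes sign, under cyclic loess.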

How the data were processed

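The authors deposited log2 values for each probe set of every array, summarised with RMA per the submitters' processing notes. Limma is named there too, and versions are not given in the sources used here. As RMA normally brings arrays to one distribution, a difference is read against the rest of the RNA. Of 35556 probe sets, 21789 had 1 gene symbol in the platform annotation, 1621 had several and 12146 had no listed gene. The brightest single-symbol probe set stood for each of 19938 genes. Older symbols of 4 listed genes were matched.

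Differences are pulldown minus input from limma 3.58.1 in R 4.3.3 (lmFit and eBayes, 2-sided, no covariates). Calls are at 0.05 after Benjamini-Hochberg adjustment over all genes. SEs and 95% intervals of single genes and probe sets are moderated. The fit was tested on simulated data. Paralog pairs used an exact permutation test. The SEs of all within-array shifts between 2 genes came from the pooled SD of both groups and are not moderated. The genes named were all 10 members, all measured genes of the other subunit and LIS1 lists, the 4 adaptors with the largest called differences, Dync2h1 and any called dynein 2 gene; Rilp and Bicdl1 were named after their values were seen. The members and lists were chosen with earlier results of these data known. Protein length, planned as the measure of size, was not used here, and genomic span (GRCm38.p6 gene table, no coordinates given) took its place after the data were seen. Alternatives were a replicate block, an intensity trend, cyclic loess, centring on the brightest probe sets (above the 75th percentile), averaging all probe sets of a gene, weighting arrays, dropping dim genes, testing against 1.2-fold, and leaving out each array. The number of arrays limits the precision. Figures used matplotlib 3.10.9.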

Additional observations from a re-analysis of the deposited data

How the results depend on the processing

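Across 14 alternatives, Dync1h1, Dync1li2, Dctn1, Dynlrb1 and Dctn3 kept direction and call, with ranges of 0.75 to 0.87, 0.60 to 0.72, 0.57 to 0.72 and -1.30 to -1.19 for the first 4, while Dctn3 kept beyond 1 log2 unit lower (farthest -1.18). Dynll1 reversed under cyclic loess (-0.052), a scaling that moved all 10 differences down. Why the scalings differ was not tested. The test against a 1.2-fold change, which asks more of each gene, called 4856 genes (3034 higher, 1822 lower), 5 of the 10 dynein and dynactin genes (3 higher) and 0 of the other subunits (0 higher, 0 lower). Cyclic loess gave 0 higher and 5 lower among the other subunits. For regulators and adaptors the lower count was 3 after cyclic loess, 1 after centring on the brightest probe sets, 1 with the filter on dim genes and 0 to 1 when leaving out 1 array. With the replicate block 6247 genes were higher and 3467 lower, and no call of the 10 genes changed. The plan took the replicate numbers as names and not as pairs. Same-numbered arrays had deviations correlated at 0.024, 0.11 and -0.060. The correlation with span was 0.73 to 0.75 over the 10 genes when leaving out 1 array. The planned correlation with protein length was not run. An array has no read depth, and the dim genes (Dync1i1, Dynlrb2 and most axonemal heavy chains) lie where signal can be background.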

Other observations

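A pair of probe sets listed for all 4 Dynlt1 copies, Tctex light chains of dynein 1, could not be assigned to 1 gene and entered no count. Their means were 12.84 and 12.86 in the input and 11.98 and 11.98 in the pulldown, with log2 differences of -0.86 ± 0.028 and -0.89 ± 0.029 (SE) and limma adjusted p-values over all probe sets of 3.5e-06 and 3.6e-06. They cover near-identical sequences and are not independent of each other. Dynlt3, another gene of the same family, had a log2 difference of 0.01 that did not pass.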
